A study of Mus musculus with 19 samples.

Results

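Expression of 43 genes of the fibrillar collagen network and interstitial matrix was followed through differentiation of mouse embryonic stem (ES) cells, AICAR treatment and recovery of naive-like lines. The members were chosen by gene symbol from a fixed list and all 43 were found among the 22756 gene entries of each table; Plod2 is counted in an entry joined with B430319G15Rik. By role they comprise 7 fibrillar collagens, 8 other collagens, 4 small leucine-rich proteoglycans, 6 elastic fibre genes, 3 cross-linking oxidases, 6 matrix glycoproteins, 6 collagen processing genes and 3 matrix turnover genes.

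All 19 libraries came from the Rex1 GFPd2 ES cell line, in which the naive-state gene Rex1 (Zfp42) drives a destabilised GFP. The groups were 1 library of undifferentiated cells in Lif+2i medium (LIF with inhibitors of MEK and GSK3), 1 of cells after 2 days in serum differentiation medium, and 1 of day-2 cells sorted as negative for GFP and for the ES cell surface antigen SSEA1. Those sorted cells were cultured on to day 15 without AICAR (1 library, here the day-15 cells) or with AICAR, a nucleoside that activates the kinase AMPK. The AICAR culture gave 1 unfractionated library, 1 GFP-negative and 3 GFP-positive libraries. Lines regrown from it in Lif+2i gave 8 libraries from picked colonies (colony lines) and 2 from sorted GFP-positive cells (sorted lines). Groups follow the sample titles, although the sorting entry conflicts with the title for the unsorted day-2 library and for each AICAR fraction. It is not in the labels if replicates came from separate cultures, or if the unfractionated and fractionated AICAR libraries came from the same dish.

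Fibrillar collagens are secreted as procollagen triple helices that are hydroxylated and chaperoned in the endoplasmic reticulum, trimmed outside the cell and cross-linked by lysyl oxidases into fibres. Proteoglycans, elastic fibre proteins and glycoproteins such as tenascin and fibronectin assemble around these fibres. In tissues the network is made mainly by fibroblasts and other mesenchymal cells, whereas ES cells in the naive state make little of it apart from fibronectin.

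The promoters below show representatives of classes described further on, set by the level with AICAR relative to day-15 cells. They are the fibrillar collagen genes Col3a1, classed as lost, and Col1a2, classed as reduced. The others are a microfibrillar collagen classed as lost (Col6a1) and the collagen chaperone classed as kept (Serpinh1). RefSeq promoter sequences (build GRCm38.p6, unlike the counts, which used mm9) were matched for 26 of the 43 genes, with 31 promoters. Each line is the 150 bases before the transcription start, 5′ to 3′ on the gene's strand, and capitals mark matches, on either strand, to the 4 motifs counted below.
Col3a1 (chr1:45311388-45311537, + strand): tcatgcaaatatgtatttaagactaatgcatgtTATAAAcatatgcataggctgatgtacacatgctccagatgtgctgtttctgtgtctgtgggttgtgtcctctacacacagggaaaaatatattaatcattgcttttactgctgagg
Col1a2 (chr6:4505468-4505617, + strand): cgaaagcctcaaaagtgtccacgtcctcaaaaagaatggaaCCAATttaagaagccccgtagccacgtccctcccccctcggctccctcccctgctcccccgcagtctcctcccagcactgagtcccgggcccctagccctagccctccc
Col6a1 (chr10:76726045-76726194, - strand): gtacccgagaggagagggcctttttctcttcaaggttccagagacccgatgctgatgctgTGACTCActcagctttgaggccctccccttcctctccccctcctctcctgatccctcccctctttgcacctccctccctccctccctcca
Serpinh1 (chr7:99353240-99353389, - strand): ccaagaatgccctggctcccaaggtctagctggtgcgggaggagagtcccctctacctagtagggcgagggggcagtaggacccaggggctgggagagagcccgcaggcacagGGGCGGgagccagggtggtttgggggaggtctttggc

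Over the 250 bases before the start, with both strands searched, TATAAA (the TATA box) occurred in 7 of the 31 member promoters and in 12.4% of all 32851 promoters. CCAAT (the CCAAT box) occurred in 7 of 31 and in 33.8% of all. GGGCGG (the core of Sp1-type GC boxes) occurred in 20 of 31 and in 32.7% of all. TGANTCA (AP-1-type) occurred in 1 of 31, that of Col6a1, and in 6.75% of all; no motif overlaps another by its letters. These are matches of letters and no binding was measured.

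Between 5771671 and 8262357 reads fell in genes in 17 libraries. GFP-positive replicates 1 and 2 were deeper, with 12751260 and 14233421 reads, and by the file headers they belong to a different sequencing project from the rest. Levels are given as CPM (a gene's reads scaled to a common total of reads in genes), and genes are compared with each other only by RPKM, which also divides by gene length. Summed over 7 ES cell markers, the GFP-positive libraries held 3140 to 4281 CPM against 4517 in undifferentiated cells and 66.5 in day-15 cells. All 12 fibroblast or mesenchyme markers had reads in day-15 cells, at a sum of 684.7 CPM. In bulk libraries, fewer cells of a type and less RNA per cell cannot be told apart. The heat map of all members in all libraries shows 1 library with high levels of every member, the day-15 cells, and 1 further library with high levels of many, the unfractionated AICAR culture.

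**Figure D1:**
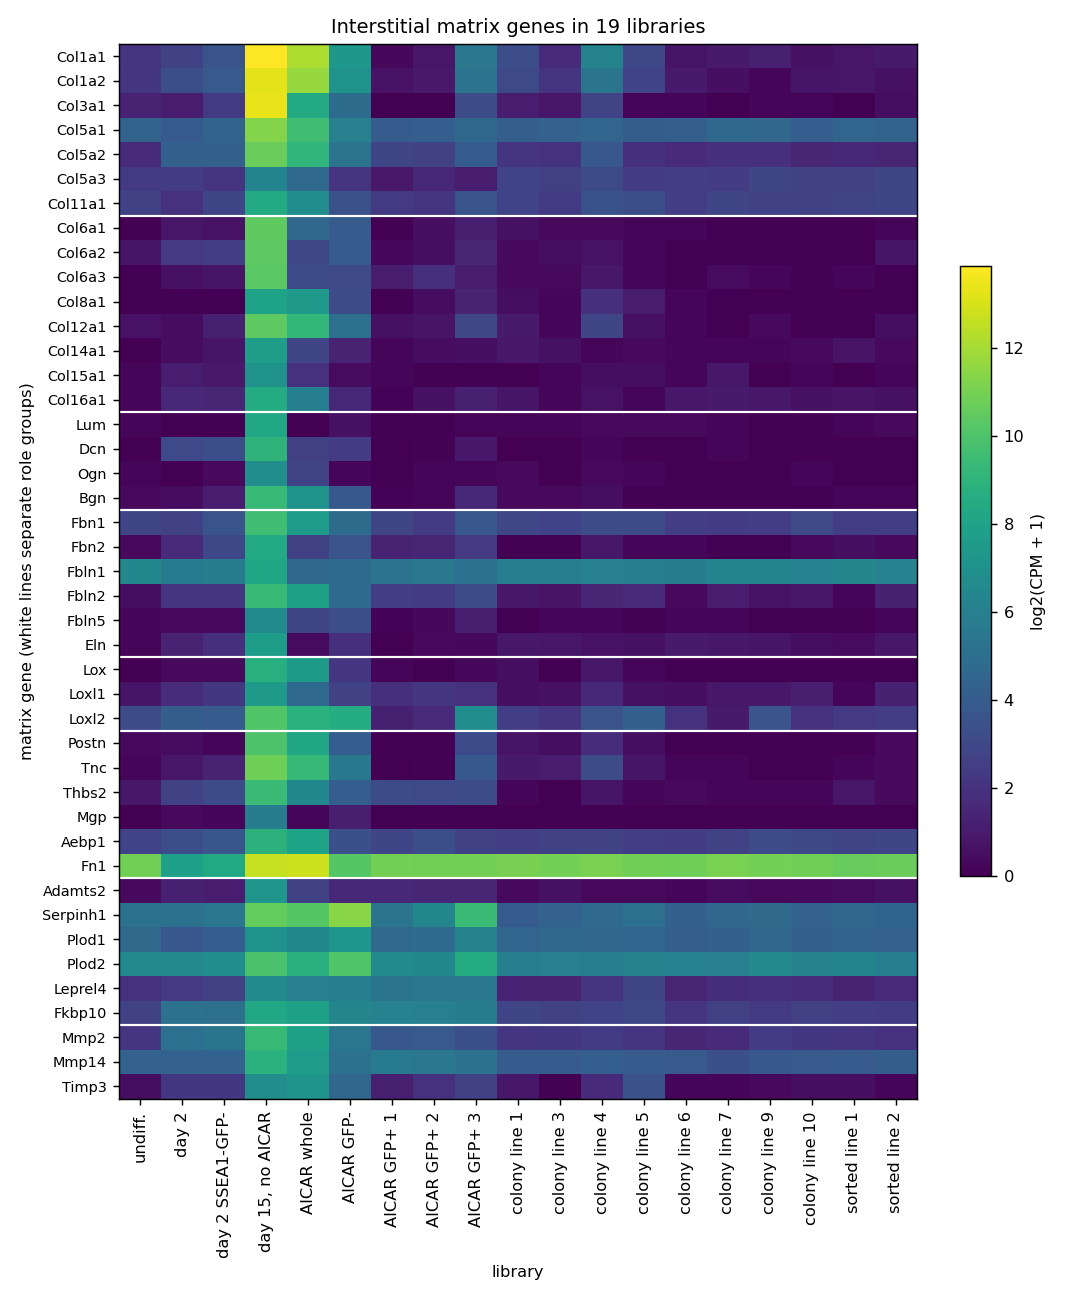
Levels of the 43 matrix genes (rows, in role order, white lines between roles) in 19 libraries (columns), as log2(CPM + 1). All 43 genes are above 50 CPM in the day-15 library, and in the ES-like libraries on the left and right Fn1 is the brightest row.

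The day-2 sorted cells were compared with undifferentiated cells to see which matrix genes moved early. The members together took 0.0827% of reads in day-2 sorted cells and 0.228% in undifferentiated cells, most of the difference being in Fn1. Of the 17 members with at least 50 reads in 1 of both libraries, 7 were more than 2-fold higher (10.9% of 9677 genes were) and 1 was more than 2-fold lower (8.46% of genes). The count of higher members was 13 at a minimum of 20 reads and 3 at a minimum of 100 reads. All 7 met the minimum of 50 reads in the day-2 sorted library alone. Their place above was thus partly set by how they entered the count, and the same rule was used for all genes. With 1 library on each side there is no replicate check and no test. Fn1, which encodes fibronectin, stood at 1938 CPM in undifferentiated cells, 228 CPM at day 2 and 337 CPM in the day-2 sorted cells, 5.75-fold below the undifferentiated level in the last. Both differentiated libraries were below the undifferentiated one.

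The 7 higher members were the gelatinase gene Mmp2, Dcn, Col5a2, Thbs2, Fkbp10, Col1a2 and Col1a1. Mmp2 was 3.52 CPM in undifferentiated, 32.3 in day-2 and 40.6 in day-2 sorted cells. Dcn, which encodes the collagen-binding proteoglycan decorin, had no read in undifferentiated cells, 7.18 CPM at day 2 and 8.99 CPM after the sort (at least 20.4-fold higher, against a floor of 3 reads). Fkbp10, the gene of an endoplasmic reticulum collagen chaperone, was 5.73, 34.6 and 33.0 CPM in the same order. In these genes the unsorted and sorted day-2 libraries lay near each other and apart from undifferentiated cells. Col1a1 differed more between the day-2 libraries, with 3.23, 5.49 and 11.1 CPM in that order.

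Day-15 cells were compared with the day-2 sorted cells from which they were grown. All 43 members were more than 2-fold higher at day 15 (31.6% of 11554 genes were) and none was lower (17.9% of genes were), with a median log2 difference of 6.82 against 0.21 over all genes. The median over all genes was 0.106 with TMM scaling. The members took 6.65% of all reads at day 15, and the 7 fibrillar collagens alone took 3.98%. Col1a1, which encodes the main chain of type I collagen, stood at 14750 CPM and 3460 RPKM, rank 5 of 22756 entries. Its partner Col1a2 ranked 11 at 2418 RPKM, and Col3a1, the type III collagen gene, ranked 12 at 2404 RPKM.

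The smallest and the largest of these differences fell in different roles. Fbln1, encoding the elastic fibre protein fibulin-1, stood at 55.5 CPM in day-2 sorted and 291.6 CPM in day-15 cells, a log2 difference of 2.39. Plod1 and Plod2, encoding lysyl hydroxylases, differed by 2.97 and 3.10 on the log2 scale. Col3a1 went from 4.05 to 10580 CPM (log2 difference 11.26) and Postn, encoding the glycoprotein periostin, from 1 read to 1017 CPM. Lum and Col8a1 had no read in day-2 sorted cells and stood at 316 and 257 CPM at day 15, at least 703-fold and 571-fold higher. Markers of several cell types were higher too. From day-2 sorted to day-15 cells the summed level went from 13.2 to 684.7 CPM for the 12 fibroblast or mesenchyme markers and from 113 to 3819 CPM for the 7 smooth muscle markers. It went from 442.8 to 33940 CPM for the 15 endoderm markers and from 1.65 to 1619 CPM for the 6 keratinocyte or squamous epithelium markers. Of these lists 6, 0, 3 and 1 markers had no read in day-2 sorted cells and none was at 0 at day 15; their part in the result was not tested.

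The unfractionated AICAR culture was compared with day-15 cells, both grown for the same time from the same kind of sorted cell. The members took 2.26% of reads with AICAR. No member was more than 2-fold higher (10.9% of 11386 genes were), 35 were more than 2-fold lower (16.5% of genes) and 8 lay within 2-fold, with a median log2 difference of -1.73 against 0.08 over all genes. By the size of this difference 15 members were classed as lost (more than 8-fold lower), 20 as reduced (2- to 8-fold lower) and 8 as kept (less than 2-fold lower, or higher). The classes are a description of these 2 libraries, with no test. Both cultures were grown from day-2 sorted cells, in which the 15 lost members had a median level of 0.899 CPM. Their median was 291.6 CPM in day-15 cells and 6.21 CPM with AICAR. The class names thus give a level relative to day-15 cells, and not a fall over time. Nearest to the 8-fold limit, Fbln5 (-3.88) and Fbln1 (-3.63) lay inside the lost class and Thbs2 (-2.96) and Loxl1 (-2.76) outside. Nearest to the 2-fold limit were Lox (-1.15) and Plod2 (-1.09) among the reduced and Aebp1 (-0.87) and Col8a1 (-0.59) among the kept, all as log2 differences.

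**Figure D2:**
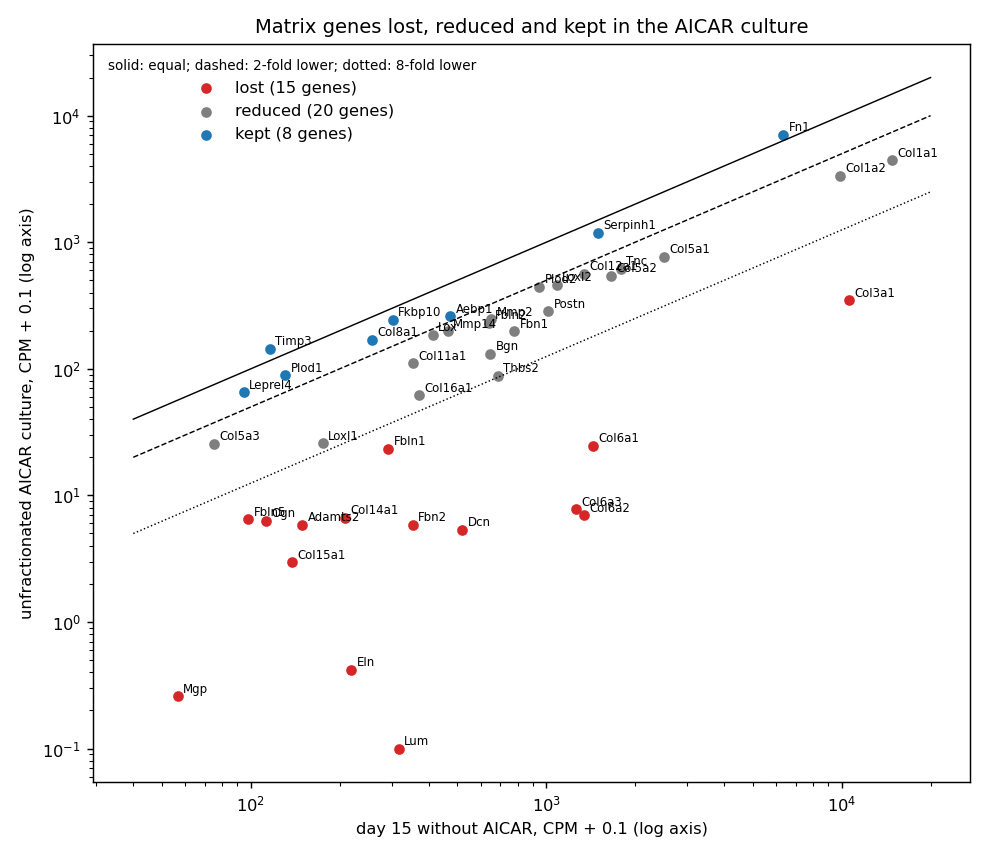
Level of each matrix gene in the unfractionated AICAR culture (vertical) against day-15 cells without AICAR (horizontal), as CPM + 0.1 on log axes, 1 library each and 1 point per gene. Lum, Eln and Mgp lie lowest, with 0, 2 and 1 reads in the AICAR culture, while Fn1 and Timp3 lie on or above the line of equal level.

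Among the fibrillar collagens 6 of 7 were reduced and 1, Col3a1, was lost. Col1a1 stood at 14750 CPM in day-15 cells and 4453 in the AICAR culture, and Col1a2 at 9849 and 3339 CPM. Col3a1 stood at 10580 and 346.5 CPM, 30.5-fold lower. By RPKM Col3a1 ranked 12 in day-15 cells and 1700 with AICAR, and Col1a1 ranked 5 and 92. Type V collagen genes, whose products nucleate type I fibrils, were reduced like type I: Col5a1 stood at 2494 and 762.7 CPM and Col5a2 at 1650 and 544.6 CPM. Col5a2 is the neighbour of Col3a1 in the order of protein-coding genes on chromosome 1, and the log2 differences of this pair were -1.60 and -4.93. Col5a3 and the type XI gene Col11a1 differed by -1.54 and -1.68.

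Of the 8 other collagens 5 were lost, 2 reduced and 1 kept. The 3 chains of beaded-filament type VI collagen were all in the lost class. Col6a1 stood at 1436 CPM in day-15 cells and 24.5 CPM with AICAR, Col6a2 at 1338 and 6.85 CPM and Col6a3 at 1265 and 7.65 CPM. Col6a1 and Col6a2 are neighbours on chromosome 10. Col14a1 and Col15a1, encoding collagens that associate with fibrils and basement membranes, stood at 208 and 138 CPM in day-15 cells and at 6.53 and 2.87 CPM with AICAR. Col12a1, encoding a fibril-associated collagen of the same subfamily as Col14a1, was reduced, at 1340 and 565 CPM. Col16a1 was reduced, at 371.8 and 61.7 CPM. Col8a1, encoding a network-forming short-chain collagen, was kept, at 257 and 170 CPM.

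Of the 4 proteoglycan genes 3 were lost. Lum, encoding lumican, had 2439 reads (316 CPM) in day-15 cells and no read with AICAR, at least 662-fold lower. Its neighbour on chromosome 10, Dcn, stood at 518.7 and 5.26 CPM, and Ogn, encoding osteoglycin, at 112 and 6.21 CPM. Bgn, encoding biglycan, the closest relative of decorin in sequence, was only reduced, at 647 and 131 CPM. The proteoglycans had the lowest median log2 difference of the 8 role groups in this comparison, -5.33.

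Of the 6 elastic fibre genes 4 were lost and 2 reduced. Eln, encoding elastin itself, had 1686 reads (218.6 CPM) in day-15 cells and 2 reads (0.319 CPM) with AICAR. The fibrillin genes separated: Fbn2 stood at 352.9 and 5.74 CPM and was lost, whereas Fbn1 stood at 779 and 198 CPM and was reduced. Among the fibulins, Fbln1 (291.6 and 23.3 CPM) and Fbln5 (98.0 and 6.37 CPM) were lost and Fbln2 (639.8 and 230.1 CPM) was reduced. The 3 lysyl oxidase genes, whose products cross-link collagen and elastin, were all reduced. Lox stood at 412.7 and 185.6 CPM, Loxl2 at 1085 and 461 CPM, and Loxl1, the member linked to elastin assembly, at 174.9 and 25.7 CPM.

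The matrix glycoproteins fell into all classes. Fn1 was kept, at 6332 and 7033 CPM, and so was Aebp1, encoding a collagen-binding carboxypeptidase-like protein, at 472 and 259 CPM. Tnc, Postn and Thbs2, encoding tenascin C, periostin and thrombospondin 2, were reduced, at 1790 and 614.5, 1017 and 284.6, and 685.7 and 88.1 CPM. Mgp, encoding the calcification inhibitor matrix Gla protein, was lost, with 436 reads in day-15 cells and 1 read with AICAR.

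Collagen processing genes were kept most often, 4 of 6. Serpinh1, encoding HSP47, the procollagen chaperone, stood at 1498 and 1192 CPM. Fkbp10 stood at 302 and 244 CPM and Plod1 at 130.9 and 88.9 CPM. Leprel4, encoding a protein with a part in collagen lysine hydroxylation, stood at 94.5 and 65.2 CPM. Plod2, encoding the telopeptide lysyl hydroxylase, was just outside the kept class, at 947.8 and 445.9 CPM. Adamts2, encoding the procollagen N-proteinase that acts outside the cell, was lost, at 149 and 5.74 CPM. Leprel4 and Fkbp10 are neighbours on chromosome 11 and do not overlap in the RefSeq table. Of the 4 pairs of members that are neighbours, 3 share a class.

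In the turnover group Timp3, encoding a matrix-bound metalloproteinase inhibitor, was kept, at 115.9 and 143 CPM. The proteinase genes Mmp2 (652 and 246.5 CPM) and Mmp14 (464 and 198 CPM) were reduced. In undifferentiated cells the median level was 0.0585 RPKM for lost, 0.609 RPKM for reduced and 2.68 RPKM for kept genes. The classes overlapped widely there, each holding genes without a read. The promoters, where matched, held a median of 6.5 CG dinucleotides per 250 bases for lost genes (9 genes), 9 for reduced (12 genes) and 11 for kept (5 genes), against 6 over all promoters; the ranges overlapped, 0 to 34, 3 to 28 and 10 to 18.

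Marker genes of other cell types differed as well between these 2 libraries. The 12 fibroblast or mesenchyme markers summed to 684.7 CPM in day-15 cells and 287.7 with AICAR, with 0 and 2 markers at 0 reads. The 7 smooth muscle markers summed to 3819 and 2469 CPM and the 15 endoderm markers to 33940 and 20840 CPM, with none at 0 in either library. Of the smooth muscle markers 3 were more than 2-fold lower and none higher, with a median log2 difference of -0.4. Among the endoderm markers 3 were higher and 4 lower by more than 2-fold, with a median log2 difference of 0.06. The endoderm sum thus does not show the course of most of its markers. Other lists differed more. The 6 keratinocyte or squamous epithelium markers summed to 1619 and 14.5 CPM, with 0 and 1 at 0 reads, and the 7 cardiac muscle markers to 211.5 and 41.1 CPM. The 7 ES cell markers summed to 66.5 and 1816 CPM, each more than 2-fold higher with AICAR. Their part in the result was not tested.

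Other genes of collagen and matrix biology were read from a wider list, 62 of which are in the tables. With AICAR against day-15 cells, 1 of 61 with enough reads was more than 2-fold higher and 29 were more than 2-fold lower, with a median log2 difference of -0.94. The lowest ratios to day-15 cells began with Aspn (asporin), at 89.98 CPM in day-15 cells and 0.159 CPM with AICAR. Next were the microfibril-associated genes Mfap4 (131 and 0.797 CPM) and Mfap2 (57.7 and 1.75 CPM), and Emilin1 (287 and 10.7 CPM). The one gene more than 2-fold higher was Pcolce2, encoding an enhancer of procollagen C-proteinase, at 2.33 and 10.99 CPM. It stood at 13.6 CPM in day-2 sorted cells. The next largest ratios were those of Tgfb2 (100.5 and 152.6 CPM), Ctgf (403 and 486 CPM) and Glt25d1, a collagen galactosyltransferase gene (230 and 269 CPM), all within 2-fold.

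The GFP-negative fraction was compared with the same day-15 library. No member was more than 2-fold higher (11.4% of 11352 genes were) and 39 were more than 2-fold lower (21.2% of genes), with a median log2 difference of -5.27 against 0.02. The 4 members within 2-fold, Serpinh1, Plod1, Plod2 and Leprel4, are all processing genes. Serpinh1 stood at 2636 CPM in the GFP-negative library, above the 1498 CPM of day-15 cells, and ranked 32 of 22756 entries by RPKM. Plod2 stood at 1099 CPM and Plod1 at 157 CPM, while Col1a1 stood at 168 CPM, Col1a2 at 138 CPM and Col3a1 at 29.1 CPM. The fibrillar collagens took 0.0452% of reads in this library. The other processing genes were lower than in day-15 cells, Fkbp10 at 78.7 against 302 CPM and Adamts2 at 1.91 against 149 CPM. In the wider list 47 of 61 genes lay more than 2-fold below day-15 cells and 2 more than 2-fold above them. The 15 endoderm markers summed to 57770 CPM in this library, the highest of the series. The 12 fibroblast or mesenchyme markers summed to 504.5 CPM with 2 at 0 reads. Of the 11 with enough reads, 10 were more than 2-fold below day-15 cells and 1 more than 2-fold above. Their median log2 difference was -4.32, so the sum does not show the course of most of them. The 6 keratinocyte or squamous epithelium markers summed to 4.51 CPM with 2 at 0 reads, and the 7 ES cell markers to 1311 CPM. Their part in the result was not tested.

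The unfractionated culture was then compared with its fractions. Against the GFP-negative library 34 members had enough reads, of which 24 were more than 2-fold higher (8.09% of 10115 genes were), 3 more than 2-fold lower (2.89% of genes) and 7 within 2-fold. The 24 members were also more than 2-fold above every one of the 4 fraction libraries, which held for 4.73% of 11311 genes, and no member was below all of them. Lox stood at 186 CPM unfractionated, 3.64 CPM in GFP-negative cells and 0.157, 0 and 0.242 CPM in GFP-positive replicates 1, 2 and 3, a 51-fold gap to the highest fraction. Col1a1 stood at 4453 CPM unfractionated, 168 CPM in GFP-negative cells and 0.235, 0.773 and 44.4 CPM in the GFP-positive replicates, a 26.5-fold gap. Aebp1 stood at 259 CPM unfractionated, 9.53 CPM in GFP-negative cells and 6.43, 9.13 and 5.69 CPM in the GFP-positive replicates.

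The unfractionated library thus lay outside the range of its fractions for all 7 fibrillar collagens. The 3 members lower than in GFP-negative cells were Serpinh1, Plod2 and Col6a2. Smooth muscle markers moved with the 24 genes, at a sum of 2469 CPM unfractionated, 366 CPM in GFP-negative cells and 84.7 to 138 CPM in GFP-positive cells. Other lists did not. The 12 fibroblast or mesenchyme markers summed to 287.7 CPM unfractionated and 504.5 CPM in GFP-negative cells. Of their 4 with enough reads, 2 were more than 2-fold higher unfractionated and 1 lower. The 15 endoderm markers summed to 20840 and 57770 CPM, with 3 markers more than 2-fold higher unfractionated and 8 lower. Their part in the result was not tested, and whether the libraries are from 1 culture is not in the labels.

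**Figure D3:**
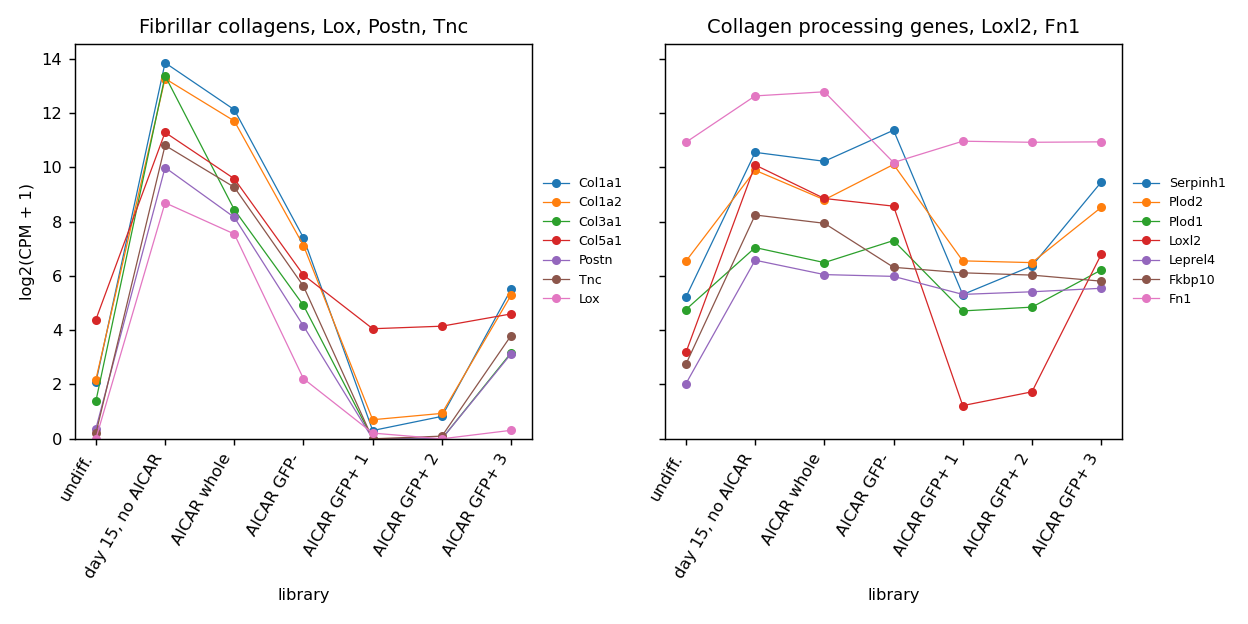
Levels of 14 matrix genes as log2(CPM + 1) in 7 libraries, with thin lines joining the values of a gene as a guide only. The genes on the left drop from the unfractionated culture to both fractions, whereas Serpinh1, Plod2 and Plod1 on the right peak in the GFP-negative library and are higher in GFP-positive replicate 3 than in replicates 1 and 2.

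The GFP-positive fraction was set against the day-15 library, and all 43 members passed the filter on low counts. Of these 39 were lower (23.2% of 14857 genes were) and none was higher (23.1% of genes were) by edgeR. An unadjusted p under 0.05 by edgeR was reached by 41 members, none of them higher, and by 8345 genes in either direction. DESeq2 called no member higher, and 3560 of 18956 genes higher. The median log2 difference was -7.47 against -0.03 over all genes. Each of the 3 GFP-positive libraries was below the day-15 library for all 43 members. The share of all genes placed in this way was not counted, so this describes the members only. Col5a1 stood at 15.6, 16.7 and 23.2 CPM in replicates 1, 2 and 3 against 2494 CPM (log2 difference -7.00 ± 0.24 (SE), adjusted p = 0.00165). Thbs2 stood at 8.31, 7.17 and 8.23 CPM against 685.7 CPM (-6.36 ± 0.15, adjusted p = 0.00165). Mgp had no read in the 3 libraries against 56.5 CPM, at least 664-fold lower over a floor of 3 reads for the group.

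The 6 smallest differences were those of Leprel4, Plod1, Fn1, Fkbp10, Plod2 and Serpinh1, while Adamts2, the remaining processing gene, differed by -6.27 on the log2 scale. Fn1 stood at 1992, 1937 and 1959 CPM in the GFP-positive libraries against 6332 CPM (-1.61 ± 0.16, adjusted p = 0.00373). Leprel4 stood at 38.9, 41.7 and 45.6 CPM against 94.5 CPM (-1.09 ± 0.15, adjusted p = 0.00715). The 4 members that did not pass the test were Serpinh1 (-2.41 ± 1.42, adjusted p = 0.215), Loxl2 (-4.83 ± 2.06, adjusted p = 0.111), Plod1 (-1.58 ± 0.59, adjusted p = 0.081) and Plod2 (-2.32 ± 0.80, adjusted p = 0.0659). In each of these replicate 3 stood far above the others: Loxl2 was 1.33, 2.32 and 110 CPM, and Serpinh1 was 38.7, 81.5 and 699 CPM in replicates 1, 2 and 3. Without replicate 3 all 43 members were lower at adjusted p under 0.05, as were 4913 of 14879 genes. Without replicate 2 there were 35, against 1552 of 14431 genes, and Col1a1, Col1a2, Postn and Tnc were among those that no longer passed.

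Replicate 3 was more than 2-fold above both other GFP-positive replicates in 12 of 24 members with enough reads, against 4.69% of 10876 genes, and below both in none. These were 5 fibrillar collagens (Col1a1, Col1a2, Col3a1, Col5a2, Col11a1), Col12a1, Loxl2, Postn, Tnc, Serpinh1, Plod1 and Plod2. The minimum of 50 reads had to be met in only 1 of the 3 libraries. Col1a1, Col1a2, Col3a1, Col12a1, Loxl2, Postn and Tnc met it in replicate 3 alone. Their place above the other replicates was thus largely set by how they entered the count, and the same rule was used for all genes. Col1a1 was 0.235, 0.773 and 44.4 CPM and Col3a1 was 0, 0 and 7.99 CPM in replicates 1, 2 and 3. Thbs2, Mmp2, Mmp14, Fn1, Leprel4 and Fkbp10 did not share this step, with Fkbp10 at 68.2, 64.3 and 55.0 CPM. The 15 endoderm markers summed to 634, 1472 and 13820 CPM in the 3 replicates and the 12 fibroblast or mesenchyme markers to 23.2, 33.0 and 134.5 CPM, with Pdgfra at 10.0, 18.7 and 122.7 CPM; their part in the difference was not tested. Replicate 3 is also the only GFP-positive library of the first sequencing project, so the replicate and the project cannot be told apart.

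Against GFP-negative cells, GFP-positive cells had 39 members past the filter. None rose (0% of 13821 genes did) and none fell (0% of genes did) by edgeR at adjusted p under 0.05. An unadjusted p under 0.05 by edgeR was reached by 22 members, of which 1 was higher, and by 3022 of the 13821 genes. DESeq2 called 10 members lower and 1 higher, where it called 566 lower and 638 higher of 18516 genes. The median log2 difference was -2.25 against 0.02 over all genes. Without replicate 3 the same test called 29 members lower and 1 higher, and 2209 lower and 1744 higher of 13829 genes. Mmp2 stood at 12.3, 13.6 and 9.44 CPM against 41.6 CPM (log2 difference -1.83 ± 0.27, adjusted p = 0.138). Fn1, the 1 higher gene at unadjusted p under 0.05, stood at 1992, 1937 and 1959 CPM against 1155 CPM (0.75 ± 0.15, adjusted p = 0.139). In both genes the GFP-positive libraries did not overlap the GFP-negative one.

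GFP-positive cells were compared with undifferentiated cells to see which matrix genes had not returned to the ES cell level. Of 35 members tested, 3 were higher (2.43% of 13640 genes were) and 1 was lower (2.62% of genes). The median log2 difference was 1.84, or 1.69 with the 3 genes without a read in undifferentiated cells put at their bound, against 0.07 over all genes. The last value was 0.236 with plain CPM, so that scaling moved all genes by more than 0.1. With 1 undifferentiated library, the filter could be met in 1 library of either group. Members such as Col6a1, Col6a3 and Col8a1, without a read in undifferentiated cells, entered only through GFP-positive libraries. The median of the members was thus partly set by how they entered, and the same filter was used for all genes. The other comparisons with the GFP-positive libraries share these 3 libraries.

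Leprel4 stood at 38.9, 41.7 and 45.6 CPM in GFP-positive replicates 1, 2 and 3 and 3.08 CPM in undifferentiated cells (log2 difference 3.59 ± 0.27, adjusted p = 0.0226). Fkbp10 stood at 68.2, 64.3 and 55.0 CPM against 5.73 CPM (3.27 ± 0.27, adjusted p = 0.0235). Thbs2 stood at 8.31, 7.17 and 8.23 CPM against 0.881 CPM (2.97 ± 0.46, adjusted p = 0.0451). All 3 replicates were above the undifferentiated library in these genes, with little spread among them. Fbln1 was lower, at 38.4, 45.4 and 32.1 CPM against 84.6 CPM (-1.30 ± 0.23, adjusted p = 0.0487). Fbln2 missed the threshold at 4.94, 4.29 and 8.35 CPM against 0.440 CPM (3.51 ± 0.75, adjusted p = 0.0587).

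The 4 calls depend on which replicates enter. Without replicate 2 no member was called, nor was any of the 13080 genes tested. Without replicate 1 Leprel4 and Fkbp10 remained called, Thbs2 and Fbln1 not. Among all 13179 genes 13 were then higher and 37 lower. Without replicate 3 there were 7 higher and 4 lower, and among all 13495 genes the calls became 2037 higher and 2121 lower. Of the fibrillar collagens, Col1a1, Col1a2, Col3a1, Col5a1 and Col11a1 had the undifferentiated level between their GFP-positive replicates. Col1a1, for example, was 3.23 CPM in undifferentiated cells, between replicates 2 and 3. Col5a2 was above it in all replicates (6.35, 5.41 and 15.4 against 2.202 CPM) and Col5a3 below it in all (0.941, 1.90 and 1.09 against 4.11 CPM), and neither was called. Genes outside the 43 that passed here were the collagen receptor gene Mrc2 (1.32 to 15.5 CPM) and Tgfbi (3.38 to 38.4 CPM), which rose, and Timp1, Pcolce2 and Pcolce, which fell, 5 of 51 tested in the wider list.

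**Figure D4:**
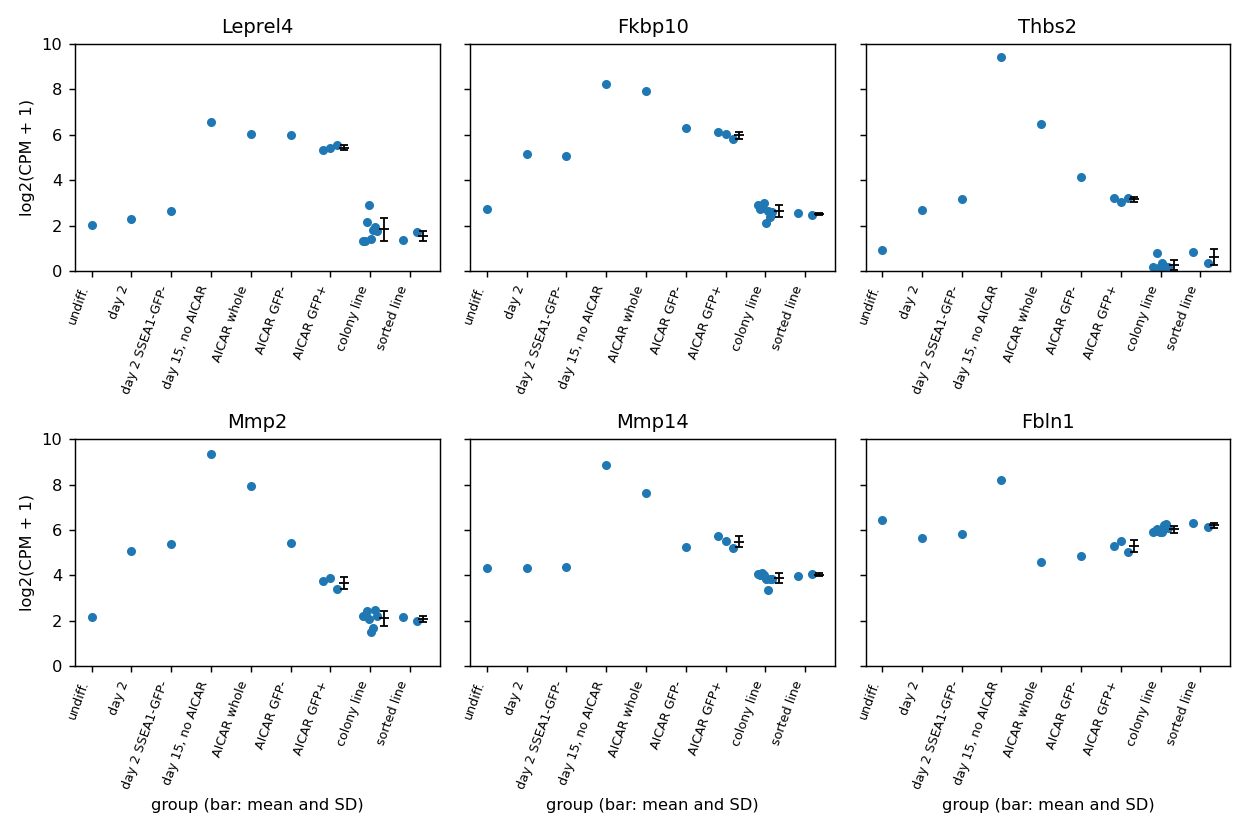
Levels of 6 matrix genes as log2(CPM + 1) in the 9 groups, 1 point per library, with a black bar for the mean and SD of groups with more than 1 library. Leprel4 and Fkbp10 are near the GFP-negative level in GFP-positive cells and near the undifferentiated level in the lines. Fbln1 is also nearer the GFP-negative level in GFP-positive cells and nearer the undifferentiated level in the lines, but is higher in the lines.

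Colony lines, grown from GFP-positive colonies in Lif+2i, were compared with GFP-positive AICAR cells. Of 24 members tested, 12 fell (30.3% of 12225 genes did) and 3 rose (27.6% of genes did), so that a larger share fell, and a smaller share rose, than among all genes. The median log2 difference was -1.14 against -0.03. Fkbp10 had a lowest, median and highest level of 3.38, 5.39 and 7.08 CPM in the 8 lines against 55.0, 64.3 and 68.2 CPM (log2 difference -3.40 ± 0.15, adjusted p = 1.64e-09). Leprel4 had 1.49, 2.46 and 6.51 CPM against 38.9, 41.7 and 45.6 CPM (-3.76 ± 0.27, adjusted p = 1.27e-07). The highest line lay far below the lowest GFP-positive library in both.

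Thbs2 fell to 0, 0.145 and 0.739 CPM (lowest, median and highest) from 7.17 to 8.31 CPM (-4.94 ± 0.38, adjusted p = 2.15e-07). The proteinase genes fell together: Mmp14 was 9.26, 14.3 and 16.4 CPM against 36.4 to 52.5 CPM (-1.52 ± 0.14, adjusted p = 1.36e-06), and Mmp2 was 1.83, 3.65 and 4.58 CPM against 9.44 to 13.6 CPM (-1.64 ± 0.22, adjusted p = 3.09e-05). Serpinh1 was 15.5, 21.4 and 32.7 CPM against 38.7 to 699 CPM (-3.41 ± 0.55, adjusted p = 0.000133). The other genes that fell were Fbn2, Fbln2, Loxl1, Adamts2, Plod1 and Plod2. Plod2 overlapped between the groups, and without GFP-positive replicate 3 neither Plod1 (-0.21) nor Plod2 (-0.27) passed.

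Fbln1 rose in the lines, to 58.5, 63.2 and 76.3 CPM from 32.1 to 45.4 CPM (0.89 ± 0.12, adjusted p = 1.98e-05). Col5a3, the least abundant type V collagen gene at day 15, rose to 4.53, 5.25 and 7.54 CPM from 0.941 to 1.90 CPM (2.198 ± 0.27, adjusted p = 1.11e-05). Neither overlapped between the groups. Fn1 was 1767, 1981 and 2176 CPM against 1937 to 1992 CPM and overlapped; it passed at 0.16 ± 0.07 (adjusted p = 0.0467), while the median of all genes was -0.031 with TMM scaling and -0.174 with plain CPM. Leaving out GFP-positive replicate 3 gave 5 higher and 10 lower, with 3440 higher and 3686 lower of 12428 genes. Within the first sequencing project, which leaves 1 GFP-positive library, 2 were higher and 19 lower, with 2748 higher and 3130 lower of 12932 genes.

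In the wider list 8 of 44 genes rose and 16 fell in colony lines. Mrc2 (15.5 to 0.544 CPM) and Tgfbi (38.4 to 2.65 CPM) had the largest decreases, followed by the prolyl hydroxylase genes P4ha2 (60.8 to 6.61 CPM) and Leprel1 (6.57 to 0.696 CPM). Emilin1 (2.82 to 9.05 CPM), Timp1 (14.5 to 42.2 CPM), Pcolce2 (26.3 to 71.3 CPM) and Tll1 (2.45 to 6.74 CPM) had the largest increases.

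Sorted lines were compared with the same GFP-positive libraries. Of 22 members tested, 10 fell (19.1% of 12593 genes did) and 2 rose (17.5% of genes did), with a median log2 difference of -1.72 against -0.05. Leprel4 stood at 1.60 and 2.27 CPM in sorted lines 1 and 2 against 38.9 to 45.6 CPM (-4.26 ± 0.21, adjusted p = 0.000436). Fkbp10 stood at 4.8 and 4.53 CPM against 55.0 to 68.2 CPM (-3.58 ± 0.18, adjusted p = 0.000436). Fbln1 rose, to 77.3 and 69.3 CPM from 32.1 to 45.4 CPM (1.09 ± 0.16, adjusted p = 0.0048), and so did Col5a3, to 5.12 and 6.51 CPM from 0.941 to 1.90 CPM (2.29 ± 0.40, adjusted p = 0.00788). The lines and the GFP-positive cells did not overlap in these 4 genes.

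Also lower in sorted lines were Thbs2, Col5a2, Fbn2, Fbln2, Adamts2, Mmp2, Mmp14 and Timp3. Serpinh1 did not pass (-3.47 ± 1.32, adjusted p = 0.0814), with 22.7 and 20.8 CPM in the lines. Leaving out sorted line 1 or sorted line 2 left 0 higher and 3 lower, with 150 and 179 genes lower of 13617 and 13610. Leaving out GFP-positive replicate 3 gave 5 higher members and 3191 higher of 12589 genes. The first sequencing project alone gave 2 higher and 25 lower members, with 3842 higher and 4026 lower of 12710 genes. In the wider list 7 of 45 genes rose and 8 fell, again with Mrc2 and Tgfbi lowest and Emilin1 and Timp1 highest.

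Colony lines and undifferentiated cells were compared on 26 members. None rose (0.00812% of 12314 genes did) and none fell (0.0244% of genes did) by edgeR. An unadjusted p under 0.05 by edgeR was reached by 3 members and by 2385 of the 12314 genes. DESeq2 called 0 members in either direction, and 293 higher and 94 lower of 17513 genes. The median log2 difference was -0.01, as over all genes. The 3 were Fbln1 (64.9 ± 6.92 CPM (SD, n = 8) against 84.6 CPM, adjusted p = 0.183), Serpinh1 (22.7 ± 5.46 against 36.3 CPM, adjusted p = 0.202) and Plod2 (68.7 ± 9.33 against 92.2 CPM, adjusted p = 0.204), in each of which all 8 lines lay below the undifferentiated library. With 1 undifferentiated library, differences of this size were not resolved.

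Levels of type I collagen varied more among the colony lines than those of the processing genes. Col1a1 had a lowest, median and highest level of 0.563, 1.75 and 73.1 CPM, the next line below the highest being at 8.66 CPM. Col1a2 had 0.148, 2.12 and 39.0 CPM. Colony line 4 was highest in both, and in Col3a1, Col5a2, Col12a1 and Tnc. In contrast Plod1 ranged from 17.2 to 23.7 CPM and Col5a1 from 16.1 to 24.9 CPM. The 7 smooth muscle markers summed to 119 CPM in line 4 and 181 CPM in line 5 against 35.7 to 45.1 CPM in the other 6 lines, and the 15 endoderm markers to 603 and 1584 CPM. Their part in the spread was not tested.

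**Figure D5:**
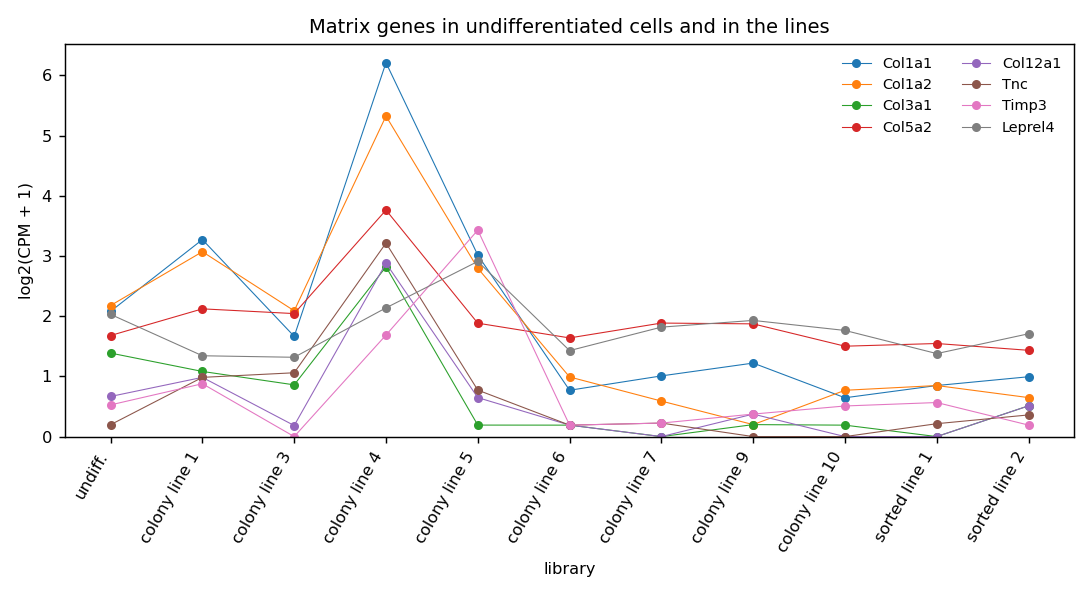
Levels of 8 matrix genes as log2(CPM + 1) in undifferentiated cells, 8 colony lines and 2 sorted lines, with thin lines joining the values of a gene as a guide only. Colony line 4 is highest for Col1a1, Col1a2, Col3a1, Col5a2, Col12a1 and Tnc, and colony line 5 for Timp3 and Leprel4.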

How the data were processed

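RNA of 19 mouse ES cell libraries was measured with stranded mRNA libraries. The authors counted unique reads over each gene with rpkmforgenes and RefSeq genes, per the file headers, and these deposited counts were used as they stand. The deposited RPKM values (counts scaled by gene length and depth) leave out the 3' untranslated regions, per the file headers. Reads were processed with bcl2fastq, CASAVA 1.8.2, Trimmomatic 0.3.3, TopHat2 2.0.14 and Bowtie2 2.2.5 on mm9, per the submitters' processing notes. Whether counting used strand is not given in the sources used here.

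Samples were grouped by title. Groups with a replicated side were compared with the quasi-likelihood test of edgeR 4.0.16 (R 4.3.3) on all genes, with TMM scaling, and a filter at a minimum count of 10 and total of 15; calls had a p under 0.05 after Benjamini-Hochberg adjustment. A lone library is assumed to vary like the replicated group, and p measures only the spread between these samples, which may be technical. The alternative tool was DESeq2 1.42.0. Single libraries were compared by the log2 ratio of their CPM (prior count 2), with a 2-fold limit and at least 50 reads in 1 library. A gene could meet this minimum in only the library where it was higher. Where a group held 1 library, the edgeR filter likewise could be met in 1 library. Where a group had no read, a fold was computed against 3 reads, the 95% limit, which covers counting error only. The tests were tested on simulated counts. Replicate pairs of a group differed by a chi-square per degree of freedom of 1.96 to 51.05 over 32 pairs, where 1 is counting noise alone, so no library was counted as a duplicate.

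The members and lists were chosen with earlier results of these data known. Named in full are, per role, the 2 to 4 members with the most reads over all libraries, lost and kept members with at least 100 reads in day-15 cells, members called in the lines and, of the wider list, the 4 largest and 4 smallest ratios of a comparison described; other members are named to account for all 43.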

Additional observations from a re-analysis of the deposited data

Results flagged for a closer look

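Among 23 members with a mean of at least 1 CPM over the 8 colony lines, 10 had a single line standing apart, its gap to the next line being large relative to the whole range. The limit used flags about 1 in 20 groups of independent, normally distributed values. Levels near 0 of genes that vary together are not such values. Col3a1, Col12a1, Tnc and Timp3 also reached the mean of 1 CPM only through the line that stood apart. The count of 10 can therefore not be set against that rate. Colony line 4 stood highest in 6 of them: Col1a1 at 73.05 CPM, Col1a2 at 39.04 CPM, Col3a1 at 6.063 CPM, Col5a2 at 12.57 CPM, Col12a1 at 6.358 CPM and Tnc at 8.281 CPM. Colony line 5 stood highest for Leprel4 at 6.512 CPM and Timp3 at 9.769 CPM. Plod2 was highest in colony line 9, at 89.01 CPM, and Mmp14 lowest in colony line 7, at 9.263 CPM.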

How the results depend on the processing

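Against GFP-negative cells, GFP-positive cells had 0 higher and 0 lower members. DESeq2 gave 1 and 10, all 19 libraries in one fit gave 1 and 26, and leaving out one replicate gave 0 to 1 and 0 to 29. Over all genes in this comparison, 0 higher and 0 lower became 638 and 566 of 18516 with DESeq2. All 19 libraries in one fit gave 1815 and 1733 of 15041 genes, and leaving out replicate 3 gave 1744 and 2209 of 13829. Against undifferentiated cells, 3 higher and 1 lower became 6 higher with DESeq2, 8 higher and 2 lower with all 19 libraries in one fit, and 0 to 7 higher and 0 to 4 lower without one replicate. Colony lines against GFP-positive cells gave 2 to 5 higher and 10 to 14 lower without one replicate and 19 lower in the first sequencing project alone. Sorted lines gave 0 to 5 higher and 3 to 13 lower without one replicate, 25 lower in the first project alone and, with the replicate number as a block, 5 higher and 13 lower; the labels do not say that the shared numbers mark shared cultures. Over all genes, sorted lines with the block gave 3401 higher and 3550 lower of 12593, against 2210 and 2407 without it. Day-2 sorted against undifferentiated cells gave 13 higher members at a minimum of 20 reads and 3 at 100. The causes were not tested. Of the alternatives run on single called genes, 623 kept direction and threshold, 49 kept the direction only and none reversed; Fn1 in colony lines and Plod1 and Plod2 without GFP-positive replicate 3 are among the 49. Over all genes, GFP-positive against undifferentiated cells gave 331 higher and 358 lower, and 1079 and 1028 with DESeq2. All 19 libraries in one fit gave 2131 and 2173 of 15041 genes. Without one replicate there were 0 to 2037 higher and 0 to 2121 lower, so the calls moved among all genes and not only among members. Limits are 1 library in 6 of the 9 groups, few reads for lost genes in ES-like cells, and a GFP-positive group split over both sequencing projects.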
